A study of Rattus norvegicus with 18 samples.

Results

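The 9 monocyte marker genes Cd14, Csf1r, Cx3cr1, Ccr2, Lyz2, Cd163, Fcgr1a, Fcgr3a and Msr1 were described in rat blood on 18 Agilent 2-colour arrays. Members were taken by gene name, as the probes whose transcript accession belongs to one of these symbols in RefSeq (assembly GRCr8). All 9 were on the array, among 15443 named genes, and all 9 were among the 13616 named genes tested. They were read by 11 probes, since Csf1r and Fcgr1a had 2 each, and each gene is given by its brighter probe with the other beside it. Every one of the 11 probes was well above background in both dyes on all 18 arrays, and none was saturated.

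The rats were males of the inbred Brown Norway (BN) and the outbred Sprague Dawley (SD) strain. Treated rats received 40 mg/kg procainamide and control rats sterile water. Blood was drawn at the eye's venous sinus. Procainamide is an antiarrhythmic drug that can induce lupus-like autoimmunity, and the series asks how strains differ in their response to it; the Lewis strain, also named in its design, is not analysed here. Each BN group had 4 arrays, untreated and treated, and each SD group had 5. Ages and the length of treatment are not given in the sources used here, and no label ties an array to a separate animal, so p-values measure only the spread between these samples, which may be technical. The sample was labelled with Cy5. Cy3 held a reference from that strain, by the labels its control replicate 1. On the arrays of control replicate 1 both dyes would then hold the same RNA, but the ratios there went against this label. On SD control replicate 1, Msr1 was at -0.81, Cd163 at -0.69 and Fcgr3a at -0.64, and on BN control replicate 1 the mean log2 ratio of 7 erythroid genes was 1.27. The SD of log2 ratios over probes was 0.387, 0.317, 0.4089 and 0.4334 on BN control replicates 1 to 4. On SD control replicates 1 to 5 it was 0.2445, 0.1995, 0.2754, 0.2493 and 0.2624. Replicate 1 was thus neither the lowest nor the highest control in either strain. Which RNA the reference was is therefore uncertain, and a positive log2 ratio means only more signal in Cy5 than in Cy3.

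Monocytes are circulating phagocytes that leave the bone marrow, patrol the blood and can enter tissue to become macrophages or dendritic cells. Classical monocytes carry the chemokine receptor Ccr2 and much Cd14, and non-classical monocytes carry Cx3cr1 and the Fc receptor Fcgr3a. Csf1r is the receptor for the growth factor on which the lineage depends. In rats, as in other mammals, most of these genes are shared with other cells: Lyz2 and Cd14 are also made by neutrophils, Fcgr3a by natural killer cells, and Cd163 and Msr1 by tissue macrophages. In RNA from whole samples a lower level can mean fewer cells of a type or less RNA in each cell, and these cannot be told apart.

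The median Cy5 signal of an array lay between 997 and 3187, and 73.4% to 87.1% of probes were well above background. Precision is limited by how many arrays each group has. Hybridisations were spread over 3 slides. All 4 BN control arrays were on slide 2 and all 4 BN procainamide arrays on slide 3, so slide and treatment cannot be told apart in BN. Slide 1 held the 5 SD control arrays with SD procainamide replicates 1 to 3, and SD procainamide replicates 4 and 5 were on slide 2. Slide 2 was scanned on another day than slides 1 and 3. Genes listed as markers of glands and connective tissue near the eye differed between control and treated arrays. Of 13 such marker genes, 7 fell in BN and 5 in SD, and none rose. Among all 13616 named genes 1884 fell in BN and 239 in SD. Their mean log2 ratio was -0.17 to 0.02 on BN control arrays and -1.36 to -0.87 on BN procainamide arrays, and -0.17 to 0.39 against -0.75 to -0.05 in SD. Neither the source of this RNA nor its part in the results below was tested.

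Promoters are shown for Lyz2, Fcgr3a and Ccr2, which were called in the BN response or in the difference between the responses. Cd163, called only between untreated strains, has a promoter that is not shown. Whether the markers share a regulator was not tested. RefSeq promoters (build GRCr8, 250 bases before to 50 after the transcript start) were found for 7 of the 9 genes; Fcgr1a and Msr1 had no entry. Both strands were searched for 2 motifs, which may overlap each other. These were GAGGAA, the core bound by PU.1, the master regulator of myeloid cells, and GAAA followed by any 2 bases and a second GAAA, the core of the interferon-stimulated response element. Capitals mark matches. The promoters of Lyz2 (chr7:54797962-54798261, minus strand), Fcgr3a (chr13:85782386-85782685, plus strand) and Ccr2 (chr8:132611953-132612252, plus strand) read, 5′ to 3′:
Lyz2: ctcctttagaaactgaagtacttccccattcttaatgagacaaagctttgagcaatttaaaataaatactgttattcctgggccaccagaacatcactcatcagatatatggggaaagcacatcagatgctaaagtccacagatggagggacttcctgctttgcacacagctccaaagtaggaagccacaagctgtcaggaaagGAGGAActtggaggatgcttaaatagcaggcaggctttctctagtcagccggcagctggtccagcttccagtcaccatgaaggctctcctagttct
Fcgr3a: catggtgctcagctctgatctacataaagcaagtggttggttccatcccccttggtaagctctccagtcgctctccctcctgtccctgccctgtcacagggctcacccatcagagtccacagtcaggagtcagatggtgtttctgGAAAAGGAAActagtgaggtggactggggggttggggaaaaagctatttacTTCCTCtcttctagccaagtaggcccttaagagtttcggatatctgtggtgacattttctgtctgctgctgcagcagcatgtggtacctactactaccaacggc
Ccr2: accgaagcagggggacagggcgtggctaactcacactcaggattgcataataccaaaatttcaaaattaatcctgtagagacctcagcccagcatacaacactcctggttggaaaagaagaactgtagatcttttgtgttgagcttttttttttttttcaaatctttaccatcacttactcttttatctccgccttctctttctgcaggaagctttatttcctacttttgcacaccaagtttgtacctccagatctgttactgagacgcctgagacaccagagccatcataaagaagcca
GAGGAA was present in 4 of the 7 promoters (Cd14, Csf1r, Lyz2 and Fcgr3a) and in 27.6% of 33469 promoters of the same length. The interferon-stimulated element was present in that of Fcgr3a alone among the 7 and in 3.92% of all. A match is only a run of letters, and the absence of one says nothing about the factor.

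The comparison of treated and control BN rats asked how the drug changed these markers in that strain. In log2 ratios, Lyz2 and Fcgr3a were higher after procainamide, Msr1 was lower, and the other 6 did not pass the threshold (limma, p adjusted over all 26446 probes tested, under 0.05). The median of the 9 log2 differences was 0.32, against -0.04 over all probes. These 3 of 9 genes stand beside a background of 21.8% of all probes called in BN, 7.68% higher and 14.1% lower.

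Lyz2, which encodes the lysozyme of phagocytes, had log2 ratios of 0.42, 0.23, 0.06 and 0.49 on the BN control arrays and 0.78, 2.10, 2.27 and 1.21 on the procainamide arrays. All 4 treated arrays lay above all 4 controls, and replicates 2 and 3 were the highest. The difference was 2.44-fold (log2 1.29 ± 0.24 SE, adjusted p = 0.00147). The rat genome has a related lysozyme gene, Lyc2, and which of the 2 transcripts the probe read cannot be told from the files.

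This ratio rose in large part through its denominator. The raw Cy3 signal of Lyz2, which by the labels came from the same reference RNA on every BN array, was 52660, 45500, 57480 and 57010 on the control arrays and 49050, 25670, 16100 and 29260 on the procainamide arrays. The Cy3 signal was thus lowest where the ratio was highest. After normalization the mean log2 Cy3 of Lyz2 was 0.92 lower on the procainamide arrays, a difference of 1.89-fold, while its log2 Cy5 was 0.37 higher, or 1.29-fold (adjusted p = 0.0272 in Cy5 alone). Scaling each array's Cy5 to its 75th percentile gave -0.25 (adjusted p = 0.277), with the median of all probes at -0.27, so that in Cy5 alone the direction of Lyz2 turned with the scaling. Of all probes, 38.4% were called in BN in Cy5 alone and 49.5% after this scaling. The SD of log2 Cy3 over the 8 BN arrays was 0.60 for Lyz2, 0.28 for Fcgr3a and 0.14 for the median probe. What lowered the reference signal was not tested.

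Fcgr3a, the low-affinity Fc receptor that lets cells bind antibody-coated targets, had log2 ratios of 0.46, -0.29, -0.97 and -0.22 in BN control and 0.25, 1.02, 1.57 and 0.35 in BN procainamide blood. The groups overlapped by the high value of control replicate 1. Related Fc receptor genes can share its probe, so the identity of the transcript is uncertain. The difference was 2.08-fold (log2 1.05 ± 0.29 SE, adjusted p = 0.0161). Here too the channels moved in opposite directions, Cy5 by 0.70 upward and Cy3 by 0.36 downward. Cy5 alone was called (adjusted p = 0.0116), as were 38.4% of all probes. Cy5 scaled to the 75th percentile gave 0.43 (adjusted p = 0.0950), again with a median of -0.27 over all probes. The call was lost without BN control replicate 3 (log2 0.81, adjusted p = 0.0590) and without BN procainamide replicate 3 (0.80, adjusted p = 0.0525).

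Msr1, the class A scavenger receptor by which macrophages take up modified lipoproteins, had log2 ratios of 0.12, -0.24, -0.82 and 0.23 in the controls and -1.31, -0.44, -0.95 and -1.54 after procainamide. Control replicate 3 lay below treated replicate 2, so the groups overlapped. Msr1 was 1.85-fold lower (log2 -0.88 ± 0.29 SE, adjusted p = 0.0361). Unlike Lyz2, its Cy3 signal hardly moved: log2 Cy3 differed by 0.02 between the BN groups and log2 Cy5 by -0.86. Scaling to the 75th percentile gave -0.86 too (adjusted p = 0.0187). With that scaling the median of all probes was -0.27 and 49.5% of them were called. The call was lost when any of 6 of the 8 BN arrays was left out, with an adjusted p between 0.0154 and 0.117 over the 8, and with the replicate block (log2 -0.88, adjusted p = 0.0629). It was also lost on the deposited log ratios (adjusted p = 0.0686), on processed signals (0.0702) and with the BN groups alone (0.0783).

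**Figure D1:**
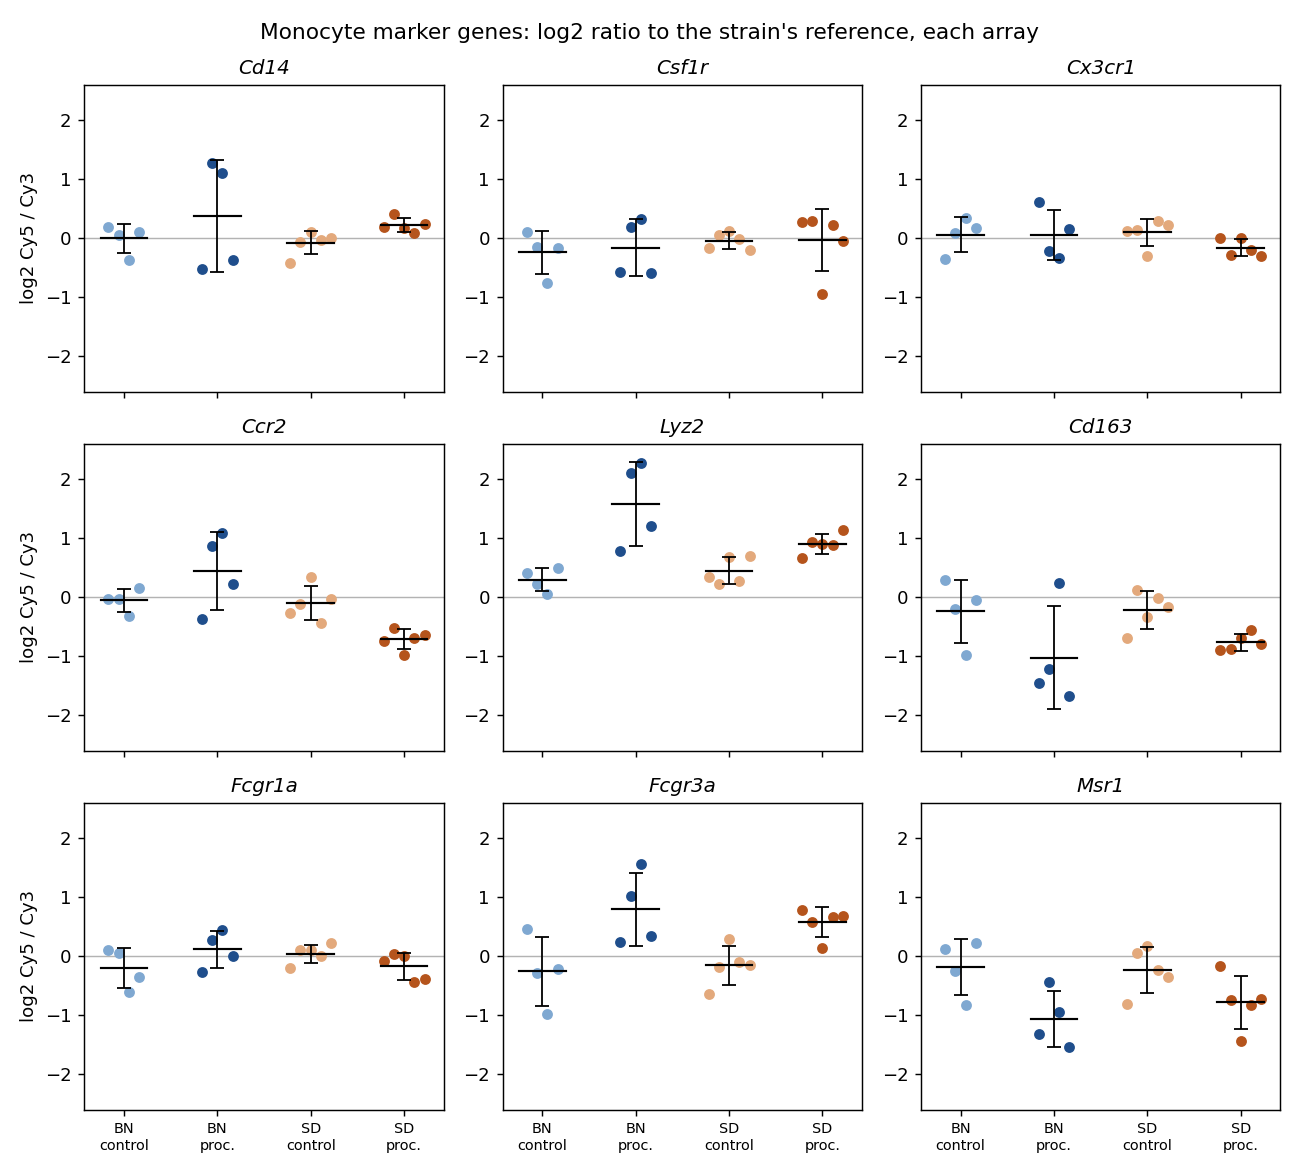
Log2 Cy5/Cy3 (y axis) of the 9 genes on each of the 18 arrays, by group (x axis); points are arrays in replicate order, bars the group mean and whiskers 1 SD. The BN procainamide values of Cd14, Ccr2, Lyz2 and Fcgr3a are spread widely, with replicates 2 and 3 highest, whereas the SD procainamide values lie close together in all but Csf1r and Msr1.

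Cd163, the haemoglobin-haptoglobin scavenger receptor of macrophages, had log2 ratios of 0.29, -0.20, -0.97 and -0.05 in BN controls and -1.45, -1.21, 0.25 and -1.67 in treated BN rats. Replicate 3 of the treated rats stood apart from the other 3, near the highest control. The difference of -0.79 ± 0.32 SE did not pass (adjusted p = 0.0938); without BN procainamide replicate 3 it did, at the lowest value over the 8 arrays left out in turn (log2 -1.21, adjusted p = 0.00229), and it also passed without BN control replicate 3. Cd14, the co-receptor for bacterial lipopolysaccharide, ranged from -0.36 to 0.20 in the controls and took values of -0.52, 1.28, 1.1 and -0.37 after procainamide. Its treated arrays fell into a high and a low pair, and the mean difference of 0.37 ± 0.30 SE was not called (adjusted p = 0.407).

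Ccr2, which draws classical monocytes to its ligand Ccl2, had log2 ratios of -0.02, -0.02, -0.31 and 0.16 in BN controls and -0.37, 0.87, 1.09 and 0.22 in treated BN rats. Treated replicates 2, 3 and 4 were above every control and replicate 1 below them. The difference of 0.50 ± 0.24 SE was not called (adjusted p = 0.148). Without replicate 1 of the treated rats it was 0.77 (adjusted p = 0.00912). Fcgr1a, the high-affinity Fc receptor, differed by 0.32 ± 0.17 SE in its brighter probe (adjusted p = 0.206) and by -0.31 ± 0.36 SE in its dimmer one. Csf1r differed by 0.07 ± 0.26 SE and -0.18 ± 0.15 SE in its probes. Cx3cr1, the fractalkine receptor of patrolling monocytes, differed by -0.01 ± 0.19 SE, with a 95% interval from -0.40 to 0.39. None of these 3 genes was called, and the probe pairs of Fcgr1a and Csf1r pointed in opposite directions.

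A term for scan day, which can be fitted through the SD procainamide arrays if slide 3 behaved like slide 1, left none of the 9 markers past the threshold in BN, among 209 probes called in all. Sizes moved little: Lyz2 gave 1.48 ± 0.41 SE (adjusted p = 0.116), Fcgr3a 1.22 ± 0.49 (adjusted p = 0.308) and Msr1 -0.88 ± 0.49 (adjusted p = 0.495). With array brightness as a term, Lyz2 gave 1.08 (adjusted p = 0.108), Fcgr3a 0.72 (adjusted p = 0.374) and Msr1 -1.24 (adjusted p = 0.109), among 685 probes called.

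**Figure D2:**
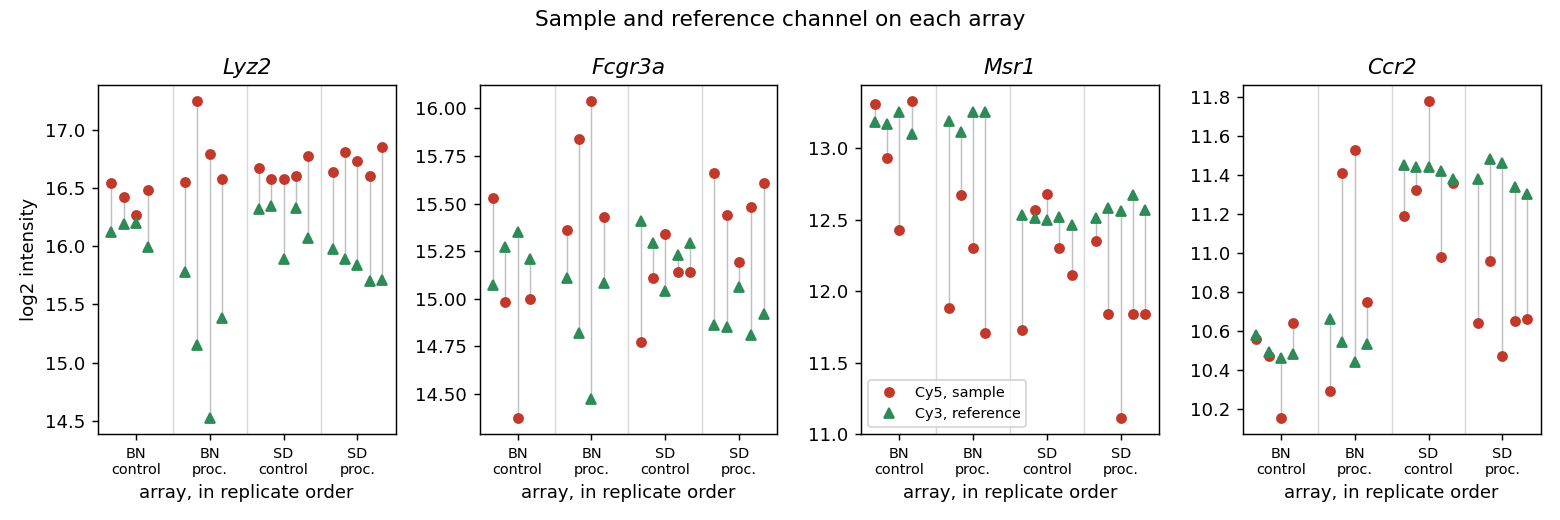
Normalized log2 intensity (y axis) of Cy5, the sample, and Cy3, the strain's reference, for 4 genes on each array (x axis, by group in replicate order); a line joins the channels of an array. For Lyz2 the references of all 4 BN procainamide arrays lie below those of the BN controls, while the references of Msr1 and Ccr2 stay nearly level within a strain.

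In SD rats the same comparison called none of the 9 markers by their brighter probes, where 2.75% of all probes were called. At an unadjusted p under 0.05 in this test, 3 of the 9 passed. The share of all probes at that looser threshold is not given here, so this count has no background. The median of the 9 log2 differences was -0.21, against 0.01 over all probes. Fitted with the SD groups alone, 3 of the 9 were called, Ccr2 and Cd163 lower and Fcgr3a higher, at 5.62% of all probes.

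In Ccr2 the SD controls gave -0.26, -0.12, 0.34, -0.44 and -0.02 and the treated SD rats -0.74, -0.52, -0.98, -0.69 and -0.64. Every treated array lay below every control array. The difference was -0.61 ± 0.21 SE, a 1.53-fold lower ratio (adjusted p = 0.139; adjusted p = 0.0267 with the SD groups alone). On slide 1 alone it was -0.65 ± 0.17 SE (adjusted p = 0.108). Fcgr3a was between -0.64 and 0.30 in SD controls and between 0.14 and 0.79 in treated SD rats, a difference of 0.73 ± 0.26 SE (adjusted p = 0.155). As in BN, its channels moved in opposite directions, Cy5 by 0.37 upward and Cy3 by 0.35 downward. For Lyz2 the SD difference of 0.46 ± 0.22 SE (adjusted p = 0.302) was made up of 0.08 in Cy5 and -0.37 in Cy3.

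Cd163 lay between -0.69 and 0.13 in SD controls and between -0.90 and -0.55 in treated SD rats (log2 difference -0.55 ± 0.29 SE, adjusted p = 0.354). Msr1 differed by -0.55 ± 0.26 SE (adjusted p = 0.286) and Cd14 by 0.30 ± 0.27 SE. Neither scavenger receptor was called in SD, and their responses were not shown to differ between strains (interaction, adjusted p = 0.622 for Msr1 and 0.772 for Cd163). The dimmer probe of Csf1r was called higher in SD: it read 0.14, 0.10, 0.07, -0.07 and 0.05 in controls and 0.39, 1.09, 0.40, 0.63 and 0.69 after procainamide, with no overlap (1.5-fold, log2 0.58 ± 0.14 SE, adjusted p = 0.0310). Its brighter probe differed by 0.00 ± 0.23 SE, so the probes of this gene did not give the same result. The dimmer probe's adjusted p rose to 0.123 with scan day as a term, to 0.116 on slide 1 alone and to 0.0546 with the replicate block. With 1 array left out the call held in 2 of 10 fits, those without SD procainamide replicate 1 or 3, and the adjusted p ran from 0.0209 to 0.0803.

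**Figure D3:**
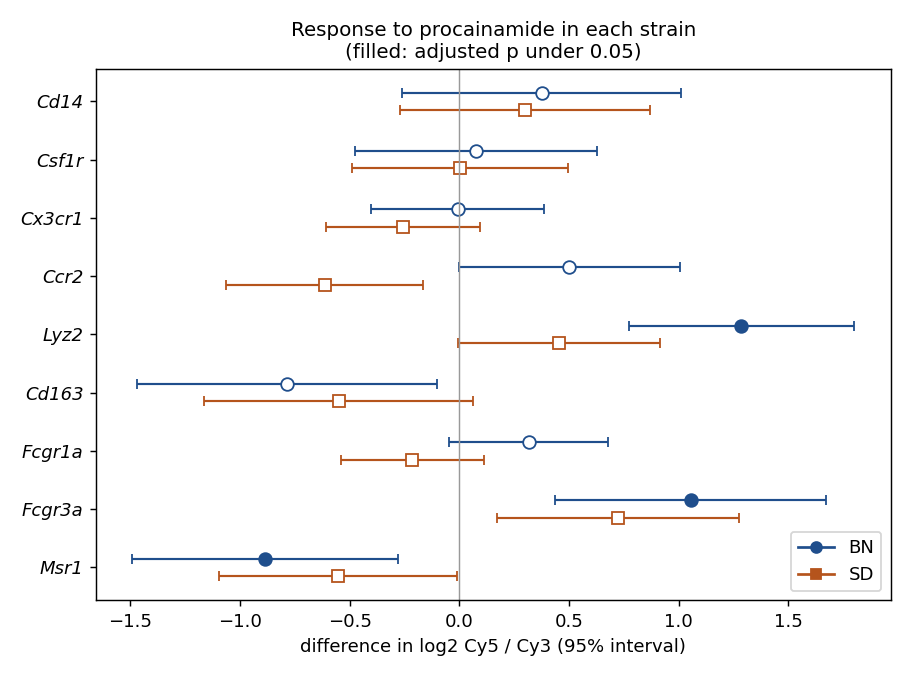
Difference between procainamide and control in log2 Cy5/Cy3 (x axis) for each gene (y axis), in BN (circles) and SD (squares); bars are 95% intervals and filled symbols passed an adjusted p of 0.05. Lyz2, Fcgr3a and Msr1 are filled in BN, none in SD, and the Ccr2 estimates lie on opposite sides of 0 (0.50 and -0.61).

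The difference between the strains' responses was tested as an interaction over all arrays. Of the 9 markers it called Ccr2 alone, beside 11.1% of all probes. The Ccr2 response was higher in BN than in SD by 1.11 ± 0.32 SE on the log2 scale, or 2.17-fold (adjusted p = 0.0322). The size was alike in Cy5 alone (1.19, adjusted p = 0.00607) and after scaling to the 75th percentile (1.12, adjusted p = 0.0116). These 2 settings called 34.2% and 42.4% of all probes, and with the scaling the median of all probes was -0.27. The call was lost with scan day as a term (1.23 ± 0.55 SE, adjusted p = 0.836, with 0 probes called in all) and with brightness as a term (0.51 ± 0.41 SE, adjusted p = 0.682, with 6). Leaving out 1 array gave 0.90 to 1.39, and 9 of 18 such fits did not pass; the arrays were BN control 3, BN procainamide 2 and 3, SD control 2, 3 and 5, and SD procainamide 3, 4 and 5.

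For the other 8 markers the responses were not shown to differ. Lyz2 gave 0.83 (95% interval 0.14 to 1.52, adjusted p = 0.111), Fcgr1a 0.53 (0.04 to 1.02, adjusted p = 0.15) and Fcgr3a 0.33 (-0.50 to 1.16). Msr1 gave -0.33 (-1.15 to 0.48) and Cd163 -0.24 (-1.15 to 0.68). Each of these 5 intervals reaches past 2-fold (log2 of 1). The dimmer Csf1r probe gave -0.77 ± 0.21 SE (adjusted p = 0.0231), again unlike the brighter one at 0.07 ± 0.35 SE.

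Between untreated rats of the strains, compared in log2 Cy5 because each strain had its own reference, Ccr2 and Cd163 were lower in BN and Msr1 was higher. These 3 of 9 stand beside 38.5% of all probes called. The median difference of the 9 was -0.15 and that of all probes 0.00. Ccr2 read 10.56, 10.47, 10.15 and 10.64 in BN and 11.19, 11.32, 11.78, 10.98 and 11.36 in SD controls. The strains did not overlap, and BN was 1.83-fold lower (log2 -0.87 ± 0.21 SE, adjusted p = 0.00417).

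Cd163 was 1.72-fold lower in BN controls (log2 -0.79 ± 0.27 SE, adjusted p = 0.0291), with 14.12, 13.70, 13.02 and 13.84 in BN and 14.04 to 14.70 in SD. Msr1 was 1.65-fold higher in BN (log2 0.72 ± 0.26 SE, adjusted p = 0.0355), with 13.31, 12.93, 12.43 and 13.33 in BN and 11.73 to 12.68 in SD. Both genes overlapped between strains, Cd163 by BN replicate 1 and Msr1 by BN replicate 3. The Cy3 references, 1 RNA for each strain by the labels and so without replicates of animals, differed in the same directions: BN minus SD was -0.89 for Ccr2, -0.61 for Cd163 and 0.65 for Msr1. This is not separate evidence for a strain difference. The references shared the arrays, slides and normalization with the samples, and by the labels each was itself a control sample of its strain. All BN controls lay on slide 2 and all SD controls on slide 1, so slide and strain cannot be told apart. With slide as a random block Ccr2 still passed (-0.86 ± 0.26 SE, adjusted p = 0.0331), Cd163 (adjusted p = 0.131) and Msr1 (adjusted p = 0.142) did not; with scan day as a term none did. With brightness as a term Ccr2 was -0.46 (adjusted p = 0.274) and none of the 9 passed. Cd163 and Msr1 also lost their calls with the replicate block (adjusted p = 0.0592 and 0.0690) and on processed signals (0.0657 and 0.0888). Leaving out 1 array, Ccr2 passed in all 9 fits, Cd163 in 4 and Msr1 in 3.

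The other 6 markers were not called between untreated strains. Lyz2 lay at 16.27 to 16.54 in BN and 16.58 to 16.78 in SD with no overlap, a difference of -0.22 ± 0.12 SE (adjusted p = 0.157), and it changed sign when each array was scaled to its 75th percentile (0.46, adjusted p = 0.0405), where the median of all probes lay at 0.19. For Fcgr1a the difference was -0.29 ± 0.12 SE (adjusted p = 0.0588), for Cx3cr1 0.21 ± 0.12 SE and for Cd14 -0.15 ± 0.28 SE. The probes of Csf1r differed once more: the brighter gave 0.02 ± 0.21 SE and the dimmer 0.82 ± 0.13 SE (1.77-fold, adjusted p = 0.000223), with means of 10.87 in BN and 10.04 in SD and no overlap.

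Under procainamide none of the 9 markers was called between the strains, where 20% of all probes were called. Of the 9 only Cd163 had an unadjusted p under 0.05 in this test, a threshold at which the share of all probes is not given here. In Ccr2 the treated rats read 10.29, 11.41, 11.53 and 10.75 in BN and 10.47 to 10.96 in SD, so that the deficit of untreated BN rats was not seen (log2 0.32 ± 0.21 SE, adjusted p = 0.305). Without BN procainamide replicate 1 this difference was called (0.55, adjusted p = 0.0431). Cd163 stayed low in BN at -0.70 ± 0.27 SE (adjusted p = 0.0745) and was called without BN procainamide replicate 3 (-1.06, adjusted p = 0.00243). Of the 9 differences 8 were positive, with a median of 0.20 against -0.02 over all probes.

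**Figure D4:**
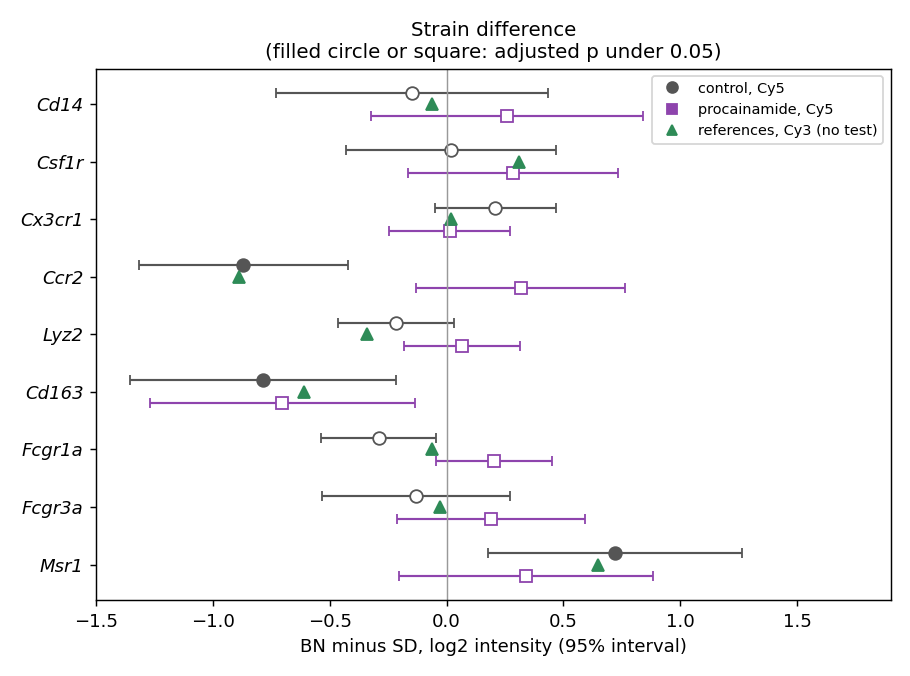
BN minus SD in log2 intensity (x axis) for each gene (y axis): Cy5 of untreated rats (circles) and of treated rats (squares) with 95% intervals, filled where adjusted p was under 0.05, and the strains' Cy3 references (triangles, no test). Ccr2 is at -0.87 in untreated and 0.32 in treated rats, while Cd163 is at -0.79 and -0.70.

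From array to array, 8 of the markers deviated from their group means together and Cx3cr1 against them. Over the 18 arrays the Pearson correlations of deviations in log2 ratio were 0.91 for Ccr2 with Lyz2, 0.89 for Cd14 with Lyz2 and 0.85 for Cd14 with Ccr2, which are markers of classical monocytes or shared with neutrophils. A further set was Csf1r with Fcgr3a (0.82) and Msr1 (0.80). Cx3cr1 had negative correlations with each of the other 8, from -0.49 with Msr1 to -0.85 with Ccr2. In Cy5 alone they were again negative, from -0.50 to -0.82, but Ccr2 with Lyz2 fell to 0.59. All points share the array, its labelling and its loess curve. Deviations in log2 ratio were also related to array brightness, with r from 0.02 for Cd163 to 0.62 for Fcgr1a and -0.43 for Cx3cr1. The probes of a gene did not follow each other closely, with an r of 0.46 for Csf1r and 0.60 for Fcgr1a.

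**Figure D5:**
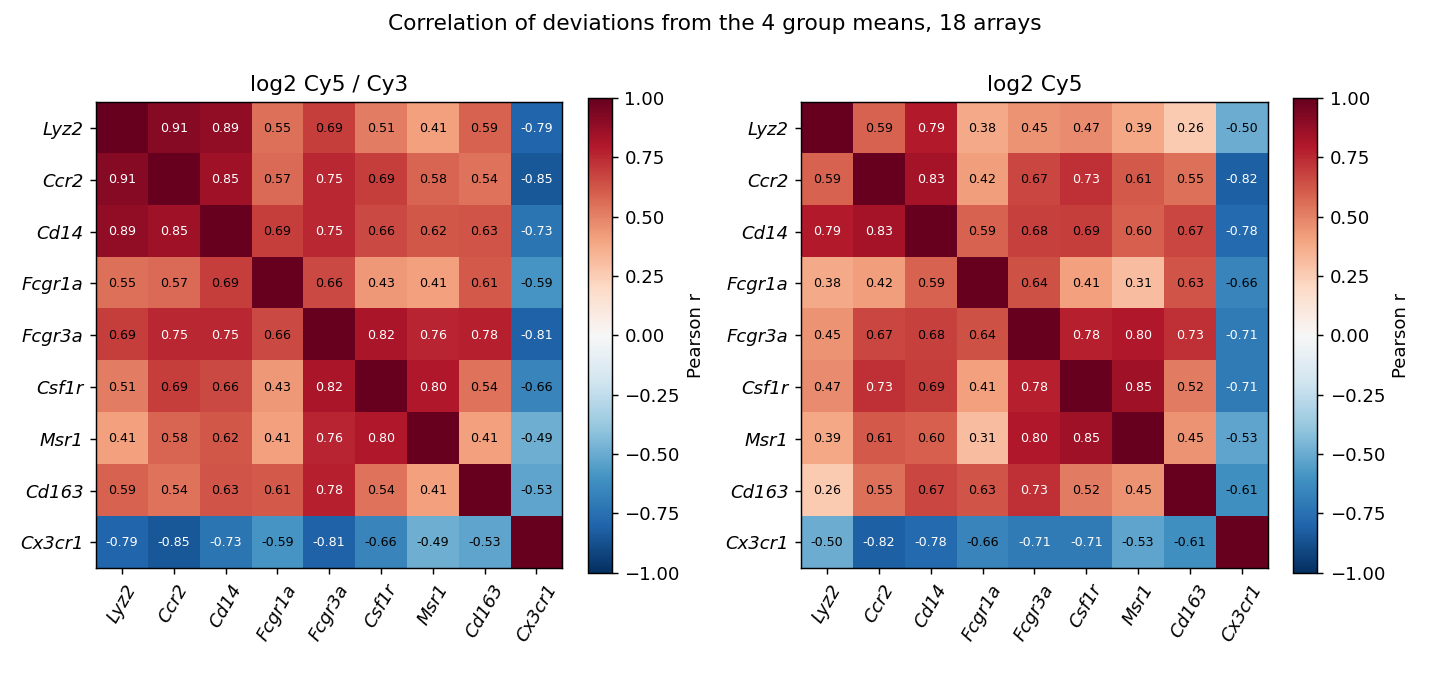
Pearson correlation of deviations from the 4 group means over 18 arrays for each pair of the 9 genes, in log2 Cy5/Cy3 (left) and log2 Cy5 (right); red is positive and blue negative. The last row, Cx3cr1, is blue against all other genes on both scales.

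The genes most like each called marker in these deviations were found among all named genes tested. For Lyz2 they were the myeloid activating receptors Trem3 (r 0.945) and Trem1 (0.927) and the classical monocyte surface gene Ly6c (0.933). For Ccr2 they were Tnfsf13 (0.917), Scgb1a1 (0.901) and Trem1 (0.898), and for Cd163 Lta4h (0.943), Pld3 (0.933) and Hpgds (0.932). For Fcgr3a they were Renbp (0.963), Abo2 (0.934) and Hebp1 (0.932), and for Msr1 Ttc1 (0.918), Neurl3 (0.908) and Mul1 (0.897). Trem1 was in the lists of both Lyz2 and Ccr2.

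Among the ligands and partners of the markers, 14 genes, 3 rose and 1 fell in BN and 2 rose in SD. Of all 13616 named genes 1224 rose and 1884 fell in BN, and 194 rose and 239 fell in SD, so the BN count lies near the background. Ccl2, the ligand of Ccr2, rose in both strains, by 3.07-fold in BN (log2 1.62 ± 0.27 SE, adjusted p = 0.000531) and 2.97-fold in SD (1.57 ± 0.24 SE, adjusted p = 0.00245). Ccl7, another Ccr2 ligand, rose 3.20-fold (adjusted p = 0.00319) and 2.55-fold (adjusted p = 0.0310). Cx3cl1, the ligand of Cx3cr1, rose 1.70-fold in BN (adjusted p = 0.0121). Ccr2 itself was not called in either strain. Haptoglobin (Hp), whose complex with haemoglobin Cd163 takes up, was 4.57-fold higher in untreated BN than SD rats (adjusted p = 6.42e-07) and 8.56-fold higher under procainamide (adjusted p = 8.68e-09). Cd163 was called lower in BN in untreated rats but not under procainamide (adjusted p = 0.0745).

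Other monocyte genes moved little as lists. Of 11 measured classical monocyte genes 1 fell in BN, F13a1, a coagulation factor subunit (1.45-fold, adjusted p = 0.00510), and 1 rose in SD, F10 (2.54-fold, adjusted p = 0.00674). Of 9 non-classical genes, Itgal, an integrin chain also abundant on lymphocytes, rose in BN (1.82-fold, adjusted p = 0.0274), and the nuclear receptor Nr4a1, needed for non-classical monocytes, fell in SD (1.59-fold, adjusted p = 0.00860). Of 15 general monocyte and macrophage genes 3 rose and 1 fell in BN, with Lst1 1.91-fold higher and the fatty acid transporter Cd36 1.62-fold lower, and Cd36 fell in SD as well (1.32-fold, adjusted p = 0.0476). The medians of these 3 lists lay between 0.01 and 0.25 in BN and between -0.19 and 0.01 in SD, against -0.02 and -0.01 over all named genes.

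The order of the BN procainamide arrays in several markers was also seen in some other cell type lists. Of 13 neutrophil genes 1 rose in BN, Mmp9, and 1 fell, Fpr1, with a median of 0.41. Among all 13616 named genes 1224 rose and 1884 fell. The mean log2 ratio of the neutrophil genes was 0.16, -0.06, -0.43 and -0.07 on the control arrays and -0.76, 0.37, 0.54 and 0.08 on the treated ones. Replicates 2 and 3, the highest in Lyz2, Cd14 and Ccr2, were the highest in these genes too. The pattern was not particular to neutrophil genes: classical monocyte genes had means of -0.49, 0.54, 0.51 and -0.07, T cell genes -0.11, 0.23, 0.23 and 0.09, and tissue macrophage genes -0.76, 0.18, 0.50 and -0.84 on the same arrays. Nor was it in every list. Non-classical monocyte genes had means of -0.1, -0.23, 0.02 and -0.06 there, B cell genes -0.28, -0.29, -0.26 and 0.06, and platelet genes -0.72, -0.87, -0.16 and -0.69. Under procainamide 9 of the 13 neutrophil genes were higher in BN than in SD and none lower, with a median of 1.28. Among all 13616 named genes 1288 were higher and 1327 lower, with a median of 0.02. The part of neutrophils or of differences between whole arrays in the levels of Lyz2, Cd14 and the other markers was not tested.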

How the data were processed

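Blood RNA of 18 samples was measured on Agilent 2-colour arrays of design 028279 (62976 spots, design build rn4). Per the file headers, the authors deposited spot intensity values from Feature Extraction 10.7.1.1, as median signals and local background of each dye and as processed signals. The deposited log10 ratios are of processed Cy5 over Cy3, per the file headers. The authors' deposited value table holds log2 ratios, whose centring is not given in the sources used here. Median signals were background-corrected (normexp, offset 50) and loess-normalized within arrays with limma 3.58.1 in R 4.3.3; log2 Cy5 was further normalized by Aquantile. Spots with an outlier mark were left out before spots of a probe were averaged, except where all were marked (0.0741% of probe values). Of 30367 probes, the 26446 whose Cy5 was well above background on at least 4 arrays were tested, and 18355 probes had 1 gene symbol. A model of 4 group means with 14 residual degrees of freedom gave 2-sided moderated tests with Benjamini-Hochberg adjustment over all tested probes, and calls were made under 0.05. Fold changes are on these log2 scales. The fit was tested on simulated data with independent noise for each probe and no slide or scan-day effect. Of 200 probes shifted by a log2 of 0.5, 1 or 2 in BN, 25%, 86.5% and 98.5% were called. Of all calls, 7.41%, 3.35% and 4.37% were false. This cannot show how the fit behaves where slide and treatment coincide. A gene is given by its probe of highest mean log2 intensity over both dyes. The text names all 9 members, at most 3 called genes of smallest p from each list and comparison, and the 3 genes most correlated with each member called in any comparison. The members and lists were chosen with earlier results of these data known, and the Cy5 scalings of the responses after seeing these values. The list of myeloid transcription factors and 1 motif are not reported here. Alternatives covered background correction, filters, probe choice, slide, scan day, brightness, the replicate number as a block and each array left out.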

Additional observations from a re-analysis of the deposited data

Results flagged for a closer look

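The interaction test called Ccr2, by 1.11 on the log2 scale between BN and SD, and the dimmer Csf1r probe, by -0.77. It called 11.1% of all probes. For Ccr2 the call held in 9 of 18 fits with 1 array left out, and was lost with scan day or brightness as a term. The brighter Csf1r probe gave 0.07 and was not called. An array stood apart from the others of its group, by Dixon's test, in 3 of 44 groups of values, and chance alone gives about 1 in 20. Csf1r was at -0.94 on SD procainamide replicate 3, with the other 4 between -0.04 and 0.30. The dimmer Fcgr1a probe was at -1.40 on the same array, with the others between -0.40 and -0.18. Cx3cr1 was at -0.30 on SD control replicate 3, with the others between 0.13 and 0.30.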

How the results depend on the processing

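Of 1376 values recomputed for the markers under another setting, 1190 kept their direction and side of the threshold. Most values were not called in the main fit, and staying uncalled counts as kept. A call was lost in 75 and gained in 20, while 88 changed sign with neither value called and 3 changed sign with a call. These 3 came from scaling Cy5 to the 75th percentile: the BN response of Lyz2 was -0.25, the response difference of Cx3cr1 -0.69 and the untreated strain difference of Lyz2 0.46. In numbers of the 9 markers called, a scan-day term or a brightness term left 0 in the BN response, the response difference and the untreated comparison. The share of all probes called fell with them, in BN from 21.8% to 0.79% and 2.59%, for the response difference from 11.1% to 0% and 0.0227%, and in untreated rats from 38.5% to 1.45% and 10.4%. Fitting 2 groups alone gave 1 in BN (10.6% of probes) and 3 in SD (5.62%, from 2.75%). Quantile-normalized Cy5 gave 5 in BN (38.8% of probes) and 2 for the response difference (35%), where Cy5 alone gave 2 (34.2%) and 75th-percentile scaling 2 (42.4%). In untreated rats slide as a random block gave 1 (17.3% of probes), the replicate block 1 (36.3%), processed signals 1 (36.9%) and 75th-percentile scaling 5 (44.8%). With 1 array left out the response difference called 0 to 2, the untreated comparison 1 to 3 and the treated comparison 0 to 1. The cause of these moves was not tested. Replicate numbers did not pair the samples: correlations of deviations between same-numbered arrays ran from -0.523 to 0.129. With the replicate block the BN calls went from 3 to 2 of the 9 and those in SD stayed at 0. The number of arrays per group limits every comparison. Slide is confounded with treatment in BN and with strain in untreated rats; in SD, slide 1 held both groups.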

Other observations

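Beside the counts in each list, 1224 of all 13616 named genes rose and 1884 fell in BN, and 194 rose and 239 fell in SD, so that several calls in a list are usual in BN and few in SD. Differences between the strains' counts were not tested here. Of 12 measured tissue macrophage genes 1 rose and 2 fell in BN and 1 fell in SD. The scavenger receptor Marco rose in BN, while the mannose receptor Mrc1 fell in BN and in SD, and Lyve1 fell in BN.

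Among markers of other blood cells, 1 of 8 NK cell genes rose in each strain, and of 11 T cell genes none was called in either. Of 7 B cell genes 1 fell in BN, and of 7 dendritic cell genes 1 rose and 1 fell there. Of 10 eosinophil and basophil genes 1 rose and 4 fell in BN, with a median of -0.96, and none was called in SD. Of 7 platelet genes 4 fell in BN and none was called in SD, and of 7 erythroid genes none was called in either strain.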
